A study of Neurospora crassa with 20 samples.

Results

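A 97 kb stretch of Neurospora crassa chromosome V (NC12 build) was examined. It runs from just before NCU03714, which starts at 2180290, to just after NCU16967, which ends at 2276605. It was chosen because the H3K9me3 lists of Δkmt2/Δset-1 held peaks there, without a WT counterpart, beside the genes NCU03719, NCU03721 and NCU03742. At NCU03742 this held after light only, since in the dark a shorter WT peak lay within the Δkmt2/Δset-1 peak. The stretch was therefore chosen on the very comparison of Δkmt2/Δset-1 with WT, and its H3K9me3 gain is given below as a description, with no test. Of the 21628 peaks in the 8 deposited lists, 63 touched the stretch by at least 1 bp, 14 of them for H3K9me3 and 49 for H3K4me3. The annotation places 26 of its 10397 genes there, of which 3 are the genes of the rule.

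The peaks came from chromatin immunoprecipitation followed by sequencing (ChIP-seq) on mycelia of WT, of Δkmt2/Δset-1 (labelled set1), which lacks the H3K4 methyltransferase, and of Δkmt1/Δdim-5 (labelled dim5), which lacks the H3K9 methyltransferase. Cultures were grown for 2 days, the last 24 h in constant darkness, and harvested in the dark (DD) or after a further 30 min of light (LP30). H3K9me3 peaks were called in WT and Δkmt2/Δset-1 against the Δkmt1/Δdim-5 DD ChIP, and H3K4me3 peaks in WT and Δkmt1/Δdim-5 against the Δkmt2/Δset-1 DD ChIP. Each list pools the 2 biological replicates of its group, so the lists give no spread between replicates and no test between groups was run on them, and each genotype was a single strain, the deletion strains having been backcrossed to the WT strain.

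In Neurospora, H3K9me3 is laid down by DIM-5, is bound by heterochromatin protein 1 and directs DNA methylation. Most of it lies over relics of repeat-induced point mutation, the process that mutates duplicated DNA during the sexual cycle, and smaller facultative patches occur elsewhere. H3K4me3 is laid down by SET-1 in the COMPASS complex and typically marks the nucleosomes that follow the transcription start of active genes. Because either mark is called against the strain that cannot make it, a peak is a region where the antibody recovered more DNA than it does without the mark, and the absence of a peak says only that the ChIP did not pass the peak caller's cutoff.

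The deleted genes behaved as the labels say in the lists where this can be read. An H3K4me3 peak covered dim-5 (NCU04402) in WT, with a fold enrichment (ChIP over control) of 1.61 in DD and 1.5 in LP30, and neither Δkmt1/Δdim-5 list had one. At set-1 (NCU01206), which is missing from the H3K4me3 control strain, the fold enrichment was 5.10 to 5.24 in the 4 H3K4me3 lists. Over dim-5, which the H3K9me3 control strain lacks, all 4 H3K9me3 lists had a peak with a fold enrichment of 1.16 to 1.24, and whether such a difference in the control plays a part at the weak peaks described below was not tested. The deletion of set-1 in the H3K9me3 samples could not be read from peaks, because no H3K9me3 list had a peak over the gene. Summits of 98.0% of the WT DD H3K4me3 peaks fell inside an annotated gene, so the files and the annotation share their coordinates. Per the labels all samples had the same nominal depth of single-end reads of 50 bp, and the reads obtained per sample are not in the peak lists.

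**Figure D1:**
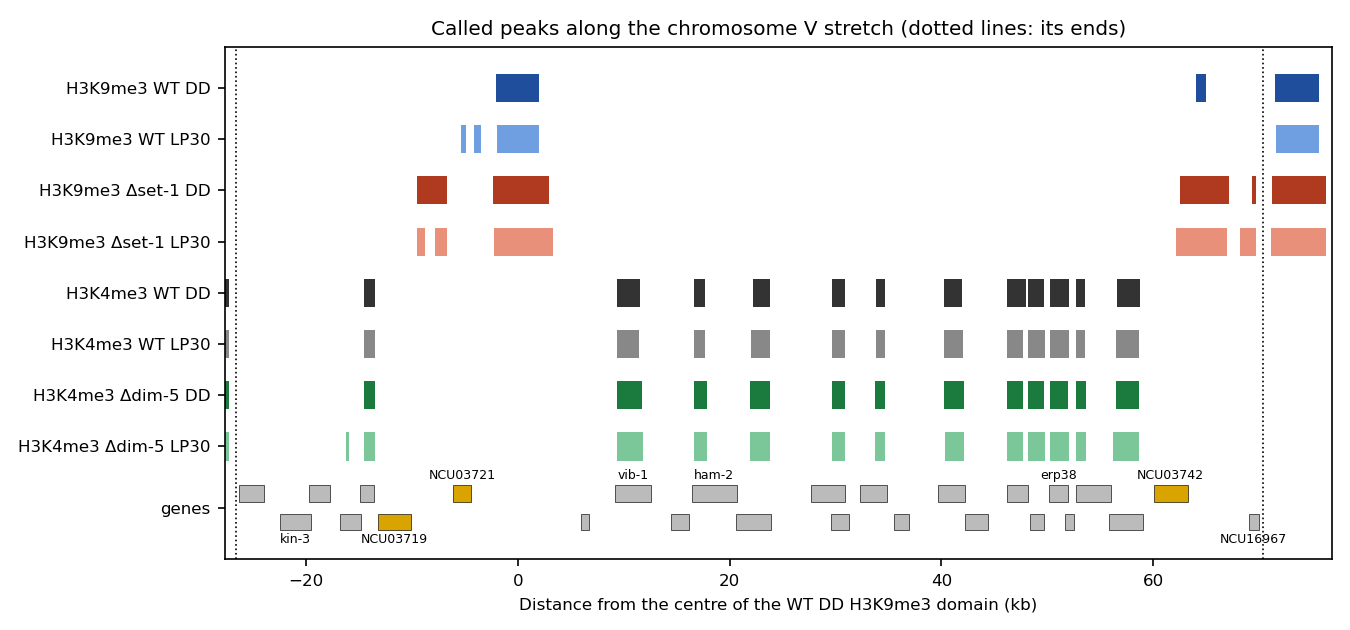
Peaks of the 8 lists (rows) and annotated genes (bottom, with the 3 genes of the rule in yellow) against the distance in kb from the centre of the WT DD H3K9me3 domain, with dotted lines at the ends of the stretch. All 14 H3K9me3 peaks of the stretch lie in intervals that hold no H3K4me3 peak, and the 12 H3K4me3 peaks of WT DD recur in every H3K4me3 list.

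H3K9me3 covered 5049 bases of the stretch in WT DD and 5010 in WT LP30. In Δkmt2/Δset-1 it covered 13050 bases in DD and 13721 in LP30. All of the bases covered in WT DD were also covered in Δkmt2/Δset-1 DD, which added 8001 bases. In LP30, 3990 bases were common, 9731 were found in Δkmt2/Δset-1 only and 1020 in WT only. The added bases lay in a patch between NCU03719 and NCU03721 and at the edges of a strong domain beside NCU03721. Others lay in a longer patch that begins in NCU03742 and in a separate, shorter peak at NCU16967.

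The patch between NCU03719 and NCU03721 was seen in Δkmt2/Δset-1 only. In DD it was 1 peak of 2800 bp, from 2197147 to 2199946, with a fold enrichment of 1.28 and a q of 0.0026. In LP30 the same ground was called as a pair of peaks with 907 bp between them, from 2197095 to 2197910 (fold enrichment 1.22, q 0.016) and from 2198818 to 2199928 (1.24, q 0.020). Of the 2852 bases from the first start to the last end, 98.2% were under a peak in Δkmt2/Δset-1 DD and 67.6% in Δkmt2/Δset-1 LP30, and 0 bases in either WT list. The nearest WT peak lay 4642 bp away in DD. In LP30 the nearer of the pair lay 1371 bp from a WT peak. The DD peak ranked 2 by fold enrichment among the 327 Δkmt2/Δset-1 DD peaks without a WT DD counterpart. Their median fold was 1.11 and their median length 781 bp. The stretch was chosen for this patch, so nothing is read from its rank.

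The patch lies between genes. It ended 608 bp before NCU03721 (2200555 to 2202206) in DD and 626 bp before it in LP30, and it began 576 bp after the end of NCU03719 (2193402 to 2196570) in DD and 524 bp after it in LP30. NCU03719 itself had no called peak of either mark in any of the 8 lists. Its nearest WT H3K9me3 peak was 8018 bp away in DD and 4729 bp away in LP30.

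In the other direction, WT LP30 had a pair of small H3K9me3 peaks that Δkmt2/Δset-1 LP30 lacked. One lay inside NCU03721, from 2201300 to 2201710, with a fold enrichment of 1.15 and a q of 0.45, and covered 411 of the gene's 1652 bases. The other, from 2202539 to 2203147, lay 332 bp beyond the gene, with a fold enrichment of 1.23 and a q of 0.015. Neither reached a q of 0.01, and no WT DD or Δkmt2/Δset-1 peak was called over either. They lay between the Δkmt2/Δset-1 patch and the strong domain that follows, a gap of 4498 bp in Δkmt2/Δset-1 LP30.

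The strong domain was present in every H3K9me3 list and was among the most enriched of the genome. It ran from 2204589 to 2208666 in WT DD with a fold enrichment of 3.37 (rank 5 of 691 peaks) and from 2204644 to 2208633 in WT LP30 with 3.13 (rank 6 of 700). In Δkmt2/Δset-1 it ran from 2204248 to 2209556 in DD with 3.13 (rank 5 of 827) and from 2204427 to 2209969 in LP30 with 3.26 (rank 5 of 780). Its place in the order of each list was thus nearly the same with and without SET-1, while its called length was 4078 and 3990 bp in WT and 5309 and 5543 bp in Δkmt2/Δset-1.

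The Δkmt2/Δset-1 domain reached further at both ends. In DD it extended 341 bp to the left, toward NCU03721, and 890 bp to the right, toward NCU14070. In LP30 the extensions were 217 bp and 1336 bp. Among the 432 H3K9me3 peaks of WT DD that matched exactly 1 Δkmt2/Δset-1 peak, the Δkmt2/Δset-1 peak reached beyond both ends in 27.1%, and in LP30 this held for 41.4% of 428. The median net extension was 2 bp in DD (quartiles -95.25 and 377.5 bp) and 41.5 bp in LP30 (quartiles -40.75 and 487.75 bp). The extension of this domain, 1231 bp in DD and 1553 bp in LP30, was at or above that of 89.1% and 90.9% of the matched pairs. Among matched WT peaks of 3 to 6 kb, both ends were passed in 17.4% of 69 (DD) and 37.1% of 62 (LP30). Their median net extension was -23 bp in DD and 16 bp in LP30. The stretch was chosen for a gain of H3K9me3 in Δkmt2/Δset-1, so nothing is read from these comparisons.

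The patch at NCU03742 was long and weak in Δkmt2/Δset-1. It ran over 4581 bp in DD, from 2269182 to 2273762, with a fold enrichment of 1.22 and a q of 0.069, and over 4775 bp in LP30, from 2268788 to 2273562, with 1.27 and a −log10 q of 1.98, just short of a q of 0.01. The LP30 peak ranked 1 by fold enrichment and 16 by length among the 292 Δkmt2/Δset-1 LP30 peaks without a WT LP30 counterpart. It lay 4695 bp from the nearest WT LP30 peak. The stretch was chosen for this peak too, so nothing is read from its ranks.

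In the dark this patch was not new. The WT DD list had a 971 bp peak within it, from 2270640 to 2271610, with a fold enrichment of 1.11 and a q of 0.00072. Thus the WT DD peak had a lower fold than the Δkmt2/Δset-1 DD peak around it and also a lower q, an unusual pair of values, since 0.289% of the WT DD peaks combined a fold under 1.2 with a q under 0.001. The other lists held no such peak in the stretch and 0.286% (WT LP30), 1.33% (Δkmt2/Δset-1 DD) and 0.769% (Δkmt2/Δset-1 LP30) over the genome. Of the 4975 bases from 2268788 to 2273762, peaks covered 19.5% in WT DD, 0% in WT LP30, 92.1% in Δkmt2/Δset-1 DD and 96.0% in Δkmt2/Δset-1 LP30. A gain without SET-1 at NCU03742 is therefore a gain of a peak in LP30 and a gain of called length in DD.

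NCU03742 (2266676 to 2269874) was reached by the left end of this patch. Of its 3199 bases, 693 were covered in Δkmt2/Δset-1 DD and 1087 in Δkmt2/Δset-1 LP30, and none in WT. The WT DD peak lay 765 bp beyond the gene, and the nearest WT LP30 peak 8383 bp away. NCU16967 (2275617 to 2276605), a shorter gene further right, carried the last H3K9me3 peak of the stretch in Δkmt2/Δset-1. There 360 of 989 bases were covered in DD (fold enrichment 1.13, q 0.070) and 672 in LP30 (1.18, q 0.22). The peak itself was 360 bp long in DD and 1476 bp in LP30, where it began before the gene, at 2274813. No WT list had a peak over NCU16967.

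Just outside the stretch lay a further strong domain that all 4 lists shared. It ran from 2278111 to 2282314 in WT DD with a fold enrichment of 2.66 (rank 35) and from 2277821 to 2282975 in Δkmt2/Δset-1 DD with 2.60 (rank 24). The peak at NCU16967 ended 1533 bp before this domain in Δkmt2/Δset-1 DD and 1482 bp before it in LP30. Here too the Δkmt2/Δset-1 domain was longer at both ends, by 290 and 661 bp in DD and by 487 and 636 bp in LP30. The next H3K9me3 peak was found in WT only. It lay 231 bp from NCU03747 in DD, from 2287642 to 2288154, with a fold enrichment of 1.54 and a q of 1.2e-10, and at 2287648 to 2288134 in LP30 with 1.53 and a q of 5.3e-10. Neither Δkmt2/Δset-1 list had a peak there, so just past the stretch the direction was the opposite, at a fold above that of any weak peak inside it.

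**Figure D2:**
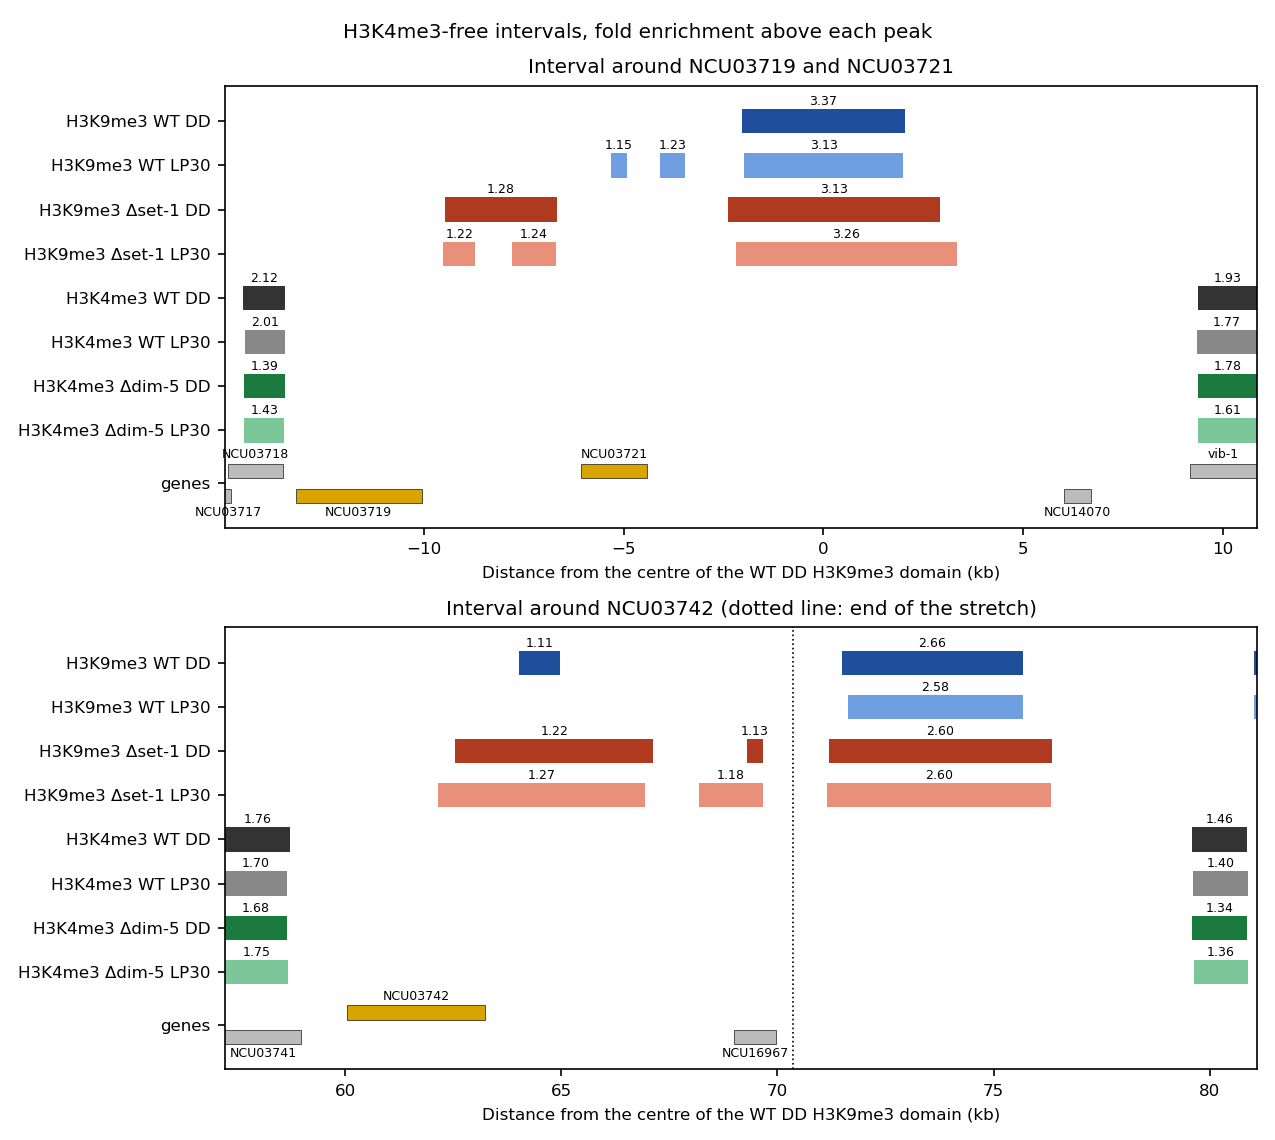
The pair of intervals of over 20 kb without an H3K4me3 peak, drawn as in the map, with the fold enrichment of each peak above it. The strong H3K9me3 domains, at 2.58 to 3.37, recur in every list, and the weak peaks beside them, at 1.11 to 1.28, differ between WT and Δkmt2/Δset-1. Slivers at the right edge belong to a WT peak beyond the interval.

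Counted as peaks, 2 of the 4 Δkmt2/Δset-1 peaks of the stretch in DD and 4 of 5 in LP30 had no base in a WT peak. The corresponding shares of the whole lists were 39.5% and 37.4%, and since the stretch was chosen for such peaks nothing is read from the comparison. Of the WT peaks, 0 of 2 in DD and 2 of 3 in LP30 had no Δkmt2/Δset-1 counterpart, where the whole lists gave 14.6% and 15%. Under a q of 0.01 in both lists the gain was much smaller. The DD comparison then left 1 peak in each direction, the patch between NCU03719 and NCU03721 in Δkmt2/Δset-1 and the peak beyond NCU03742 in WT, and the LP30 comparison left none.

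**Figure D3:**
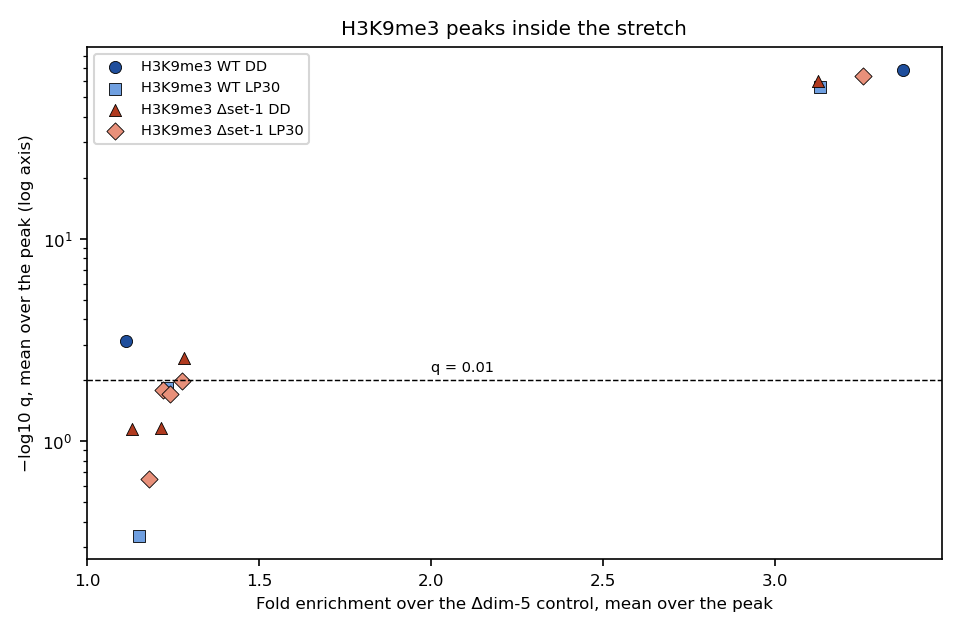
Fold enrichment over the Δkmt1/Δdim-5 control (x axis) and −log10 q (y axis, log scale), each the authors' mean over the peak, for the 14 H3K9me3 peaks of the stretch, with a dashed line at a q of 0.01. The strong domain of the 4 lists lies above 3.1-fold, the other 10 peaks lie under 1.3-fold, and of these the WT DD peak at 1.11 and the Δkmt2/Δset-1 DD peak at 1.28 are above the line.

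In Δkmt2/Δset-1 the dark and light lists shared most of their H3K9me3. Each of its 4 DD peaks met an LP30 peak and each of its 5 LP30 peaks met a DD peak, with 11746 bases in common, where 17.8% of all Δkmt2/Δset-1 DD peaks and 12.8% of all LP30 peaks had no counterpart. The call between NCU03719 and NCU03721 was split after light and the call over NCU16967 was longer. In WT, 1 of 2 DD peaks, that beyond NCU03742, had no LP30 counterpart, against 16.6% of the list. Of the 3 WT LP30 peaks, 2 had no DD counterpart, those at NCU03721, against 10.9% of the list. The strong domain accounted for all 3990 bases that the WT lists shared.

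None of the 14 H3K9me3 peaks of the stretch, which include the same places called in several lists, overlapped an H3K4me3 peak of any list. The smallest distance between peaks of the marks was 3434 bp, to the left of the NCU03742 patch. Overlap was also rare genome-wide, so its absence is not particular to the stretch. In the whole lists, 7.38% of WT DD and 9.14% of WT LP30 H3K9me3 peaks had a base in the WT H3K4me3 peaks of the same condition, as did 3.87% of the Δkmt2/Δset-1 DD peaks set against WT DD and 6.92% of the LP30 peaks set against WT LP30. The WT H3K4me3 lists were used for the latter because the H3K4me3 ChIP of Δkmt2/Δset-1 served as the control.

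All H3K9me3 peaks fell into a pair of intervals in which no H3K4me3 list had a peak. The first ran for 22851 bp from 2193139 to 2215989, from NCU03718 to vib-1. The second ran for 20869 bp from 2265354, beside NCU03741, to 2286222, past the end of the stretch. A shorter one at the left end, 10992 bp from 2179399 to 2190390 over NCU03714, kin-3 and NCU03716, had no H3K9me3 peak in any list. Genome-wide, 325 intervals of at least 20 kb held no H3K4me3 peak, and 68.9% of them had an H3K9me3 peak in WT DD, 66.8% in WT LP30, 72.0% in Δkmt2/Δset-1 DD and 71.7% in Δkmt2/Δset-1 LP30.

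The genes of the rule had no H3K4me3 peak in any list. They shared this with 8 other genes of the stretch (NCU03714, kin-3, NCU03716, NCU14070, NCU03726, NCU03733, NCU03736 and NCU16967), making 11 of 26, and across the genome 52.7% of the genes lacked such a peak. An H3K9me3 peak of any list lay over 3 of the 26 genes, NCU03721, NCU03742 and NCU16967, all without an H3K4me3 peak. By list, 0 genes of the stretch were covered in WT DD, 1 in WT LP30 and 2 in each Δkmt2/Δset-1 list, where 4.66%, 4.07%, 7.65% and 7.31% of all genes were.

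H3K4me3 lay over most genes between these intervals and over NCU03718 to their left. The same 12 peaks were called in every H3K4me3 list, all with a q under 0.01. They lay over 14 genes (genome-wide, 43.5% of genes were covered in WT DD, 43.6% in WT LP30 and 44.6% in Δkmt1/Δdim-5 DD), among them vib-1 (NCU03725), which encodes a transcription factor needed for heterokaryon incompatibility, ham-2 (NCU03727), required for hyphal fusion, and erp38 (NCU03739), an endoplasmic reticulum protein of the protein disulfide isomerase kind. In bases, H3K4me3 covered 17800 (DD) and 17606 (LP30) of the stretch in WT and 18391 and 19134 in Δkmt1/Δdim-5.

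A single further H3K4me3 peak was found, in Δkmt1/Δdim-5 LP30 only. It lay within NCU03717, from 2190391 to 2190736, with a fold enrichment of 1.12 and a −log10 q of 0.68, and brought the genes covered in that list to 15 of 26 (45.2% genome-wide). So 0 of 12 Δkmt1/Δdim-5 peaks in DD and 1 of 13 in LP30 had no WT counterpart, where 11.9% of either list had none. No WT peak of the stretch was missing from Δkmt1/Δdim-5, against 4.59% of the DD list and 5% of the LP30 list. After light the same peak was the only one without a DD counterpart in Δkmt1/Δdim-5, against 5.87% of the list, while 0 of its 12 DD peaks were lost, against 4.55%, and in WT there was none in either direction, against 3.06% and 4.05%.

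The 12 shared peaks had medians close to those of the whole lists. In WT DD the fold enrichment at the summit ran from 1.27 over NCU03732 to 2.28 over NCU03738, with a median of 1.79 beside 1.73 for the whole list. In WT LP30 the medians of stretch and list were 1.70 and 1.64. For Δkmt1/Δdim-5 they were 1.66 and 1.58 in the dark, and 1.62 (over all 13 peaks) and 1.60 after light. The peak over NCU03732 was the weakest of the 12 in all 4 lists, and that over NCU03738 the strongest in WT DD and Δkmt1/Δdim-5 DD.

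Between WT and Δkmt1/Δdim-5, 10 of the 12 peaks had a lower fold enrichment in the mutant in DD and 5 of 12 in LP30, where 82.7% and 50.1% of all matched peaks did. The peak over NCU03718, singled out after its values were seen, differed most. This gene is the left neighbour of NCU03719, and its peak borders the first H3K4me3-free interval. Its fold enrichment was 2.12 in WT DD and 2.01 in WT LP30 against 1.39 and 1.43 in Δkmt1/Δdim-5. The ratio of mutant to WT was 0.657 in DD, the rank 27 from the lowest of 4046 matched peaks, and 0.713 in LP30, the rank 23 of 4053. The next lowest ratios in the stretch were those of the peak over NCU03730 and NCU03731, 0.778 in DD and 0.802 in LP30.

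The number of ChIP fragments over a summit (the ChIP pileup) and the scaled control value there could be solved from the fold enrichment and p. ChIP pileups at summits were crowded near an upper end in every list, with a longer tail below. The 5th percentile was 241 to 261 fragments. The median was 400 to 406 fragments and the 95th percentile 420 to 429, and the highest of any peak was 431 to 441. In the stretch the 12 shared peaks ran from 331 to 429. Control values had medians of 221 and 234 fragments in WT and 244 and 240 in Δkmt1/Δdim-5, for DD and LP30, so the scale of the control also differed between lists. With most summits so close to the upper end, a like ChIP pileup in 2 lists does not show a like amount of H3K4me3, and a difference in fold enrichment near it appears mostly in the control value. Differences in fold were therefore not read as differences in H3K4me3, and what sets the upper end, such as a limit on duplicate reads, was not tested.

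At NCU03718 the ChIP pileup was 409 fragments in WT DD (exact 95% Poisson interval 370 to 451), 411 in WT LP30 (372 to 453), and 417 in both Δkmt1/Δdim-5 lists (378 to 459). The intervals, which cover counting error only, overlap almost entirely. The control value was 193 and 204 fragments in the WT lists and 299 and 291 in the Δkmt1/Δdim-5 lists. The summit lay 214 bp apart between the strains in DD and 250 bp apart in LP30. Every list used the same Δkmt2/Δset-1 DD ChIP as control, so the control values do not measure either strain. What the scale of the control and the summit position each add was not tested. With both strains near the upper end of the ChIP pileups, whether H3K4me3 at NCU03718 differed between them cannot be read from these values.

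At NCU03730 and NCU03731 the ChIP pileup was 379 and 383 in WT and 386 and 403 in Δkmt1/Δdim-5, and the control value 208 and 203 against 273 and 267, with summits 281 and 170 bp apart. At ham-2 the fold enrichment in WT was 2.10 in DD and 1.67 in LP30, the largest difference with light in the stretch, with a ChIP pileup of 410 and 400, a control value of 195 and 238 and summits 155 bp apart. By ChIP pileup, 1 of the 12 peaks was lower in Δkmt1/Δdim-5 in DD and 2 of 12 in LP30, where 13.7% and 28.9% of all matched peaks were. After light, 10 of the 12 peaks had a lower fold enrichment in WT (78% of all matched peaks) and 6 of 12 in Δkmt1/Δdim-5 (35.8%), and 4 and 5 of 12 had a lower ChIP pileup (27.9% and 59.1%).

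**Figure D4:**
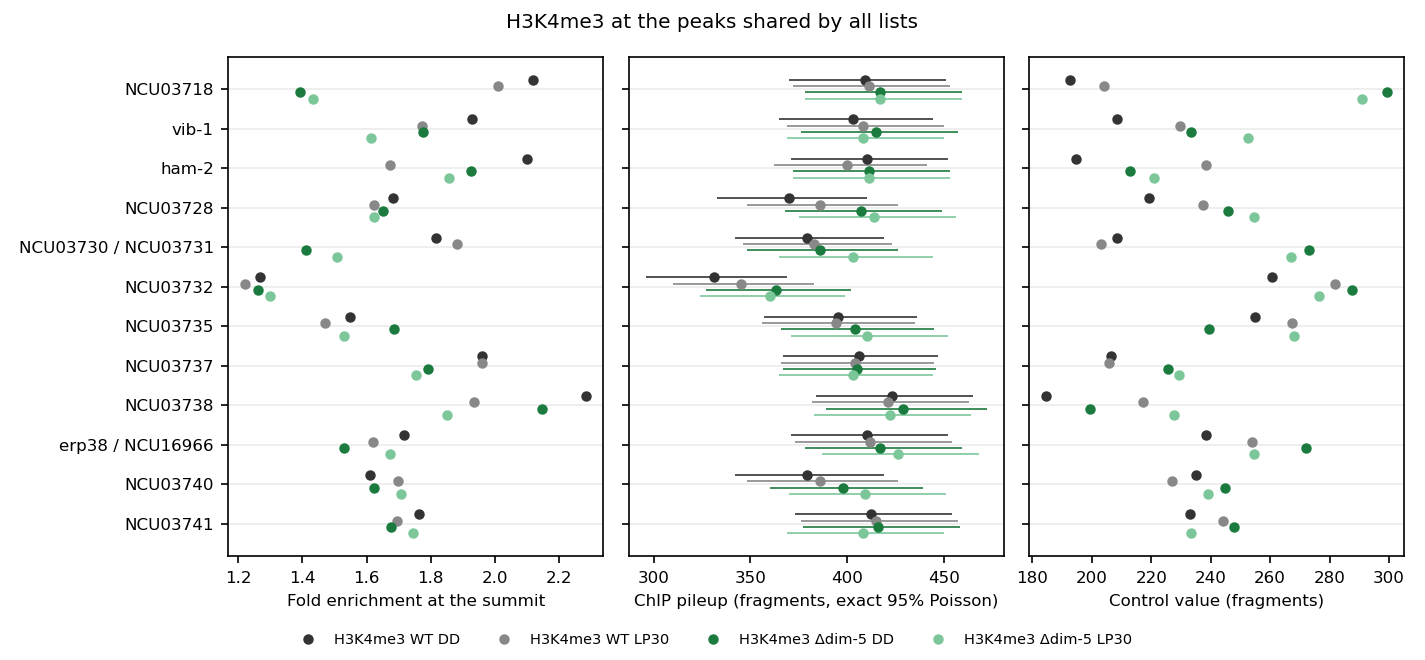
Fold enrichment (left), ChIP pileup with its exact 95% Poisson interval (middle) and control value (right) at the summits of the 12 H3K4me3 peaks shared by the 4 lists, named by the genes under them. The axes do not start at 0. At NCU03718 the fold enrichment of the Δkmt1/Δdim-5 lists, 1.39 and 1.43, is under that of WT. There the ChIP pileups, 409 to 417, overlap within their intervals and the control values, from the same Δkmt2/Δset-1 DD ChIP, differ.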

How the data were processed

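The 20 samples of 10 groups were assigned from their titles. The authors mapped reads with BWA to NC12 and called peaks with macs2 (version not given in the sources used here) at a p cutoff of 0.1, as broad peaks for H3K9me3 and narrow peaks for H3K4me3, and deposited 1 list per group with pooled replicates. The deposited fold enrichment is the ratio of ChIP to control, with a pseudocount of 1. The lists also give −log10 of the p-value and of the q-value, deposited, like the fold, as means over broad peaks and as summit values for narrow peaks. The deposited score, 10 times −log10 q or −log10 p, was not used.

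A peak counted as shared when at least 1 bp overlapped. ChIP pileups and control values were solved from fold and Poisson p of the deposited narrow peaks. Among the solved peaks, 95.5% to 96.6% of pileups per list were within 0.02 of a whole number, and all of the stretch were. The steps were tested on simulated data and recovered 70 of 70 lost and 60 of 60 gained peaks and 300 of 300 pileups. Gene spans, without strand, came from the RefSeq annotation of NC12, in which all 3 genes of the rule matched. Python 3.11.15, numpy 2.4.6 and scipy 1.17.1 were used.

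Named genes are those of the rule, those under or nearest to an H3K9me3 peak, those whose H3K4me3 peak was missing from a list, and the deleted genes. Others serve as addresses or were named after their values were seen. The stretch, its genes and the alternatives were chosen with earlier results of these data known. Fold enrichment, p and q are scaled within each list and were set side by side, not tested.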

Additional observations from a re-analysis of the deposited data

How the results depend on the processing

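No paired analysis was possible because each list pools its replicates, and for the same reason no replicate could be left out. The planned base composition of the peaks was not run. Of 106 alternative values for 30 counts or lengths, 78 stayed within 1.5 times the first value. Some of these could not have moved. A count of 0 overlaps stays 0 under a stricter overlap or q, and 0 unmatched peaks stay 0 under a looser match. The 78 is therefore no measure of stability. With a q under 0.01 in both lists, H3K9me3 peaks of WT only numbered 1 in DD and 0 in LP30, peaks of Δkmt2/Δset-1 only 1 and 0, and bases of Δkmt2/Δset-1 only 4031 and 1553. Under that q, 0 genes lay under a peak in WT LP30 or either Δkmt2/Δset-1 list, 0 WT LP30 peaks were new after light, 1 Δkmt2/Δset-1 DD peak was lost, and 0 H3K4me3 peaks were found in Δkmt1/Δdim-5 LP30 only, against WT or DD. With a minimum fold (1.2 for H3K9me3, 1.5 for H3K4me3), 1 WT LP30 H3K9me3 peak was missing from Δkmt2/Δset-1, 0 WT DD peaks were lost and 1 gained after light, and WT H3K4me3 peaks without a counterpart numbered 2 against Δkmt1/Δdim-5 in DD, 1 in LP30 and 1 after light. Widening the stretch by 20 kb on each side gave 2 peaks of WT DD only and 1 of Δkmt2/Δset-1 LP30 only after light, and a match of 50% of the peak also gave 1 of the latter. With 50% of a gene covered, 0 genes counted in WT LP30, 0 in Δkmt2/Δset-1 DD and 1 in LP30. By ChIP pileup, an alternative added after seeing the data, 1 peak in DD and 2 in LP30 were lower in Δkmt1/Δdim-5, and 4 in WT after light. The weak H3K9me3 peaks are thus near the cutoff of pooled lists that give no read totals, and the calls between NCU03719 and NCU03721 in Δkmt2/Δset-1 DD and beyond NCU03742 in WT DD are the weak peaks that pass a q of 0.01.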
